A study of Mus musculus with 8 samples.

Results

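Pax1 and 9 other transcription factors of the somite and its sclerotome (Pax9, Meox1, Meox2, Nkx3-2, Uncx, Tbx18, Twist1, Tbx6 and Foxc2) were followed by RNA sequencing of the whole spine of mouse embryos (embryonic day E18.5). They were chosen by name, and all 10 were found among the 27179 genes of the deposited count table and passed the filter on low counts with 18104 genes in all. The libraries fell into 4 groups of 2: male Pax1-Enh KO, male WT, female Pax1-Enh KO and female WT. Pax1-Enh KO (KO below) is a deletion of a genomic region named for Pax1, which the series title ties to sex and to adolescent idiopathic scoliosis, a curvature of the spine. The sources used here give neither its coordinates nor the strain and zygosity of the animals, and the labels do not say whether replicates came from separate embryos, so p-values measure the spread between these libraries, which may be technical.

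Somites are the paired blocks of mesoderm beside the neural tube. Their ventral part, the sclerotome, forms under hedgehog signals from the notochord and floor plate and gives rise to vertebrae, ribs and intervertebral discs. Pax1 and Pax9 are paralogous paired-box factors of the sclerotome that act together in the vertebral column and switch on Nkx3-2, a homeobox factor that promotes the cartilage fate. Meox1 and Meox2 are homeobox factors needed for somite derivatives. Uncx maintains the posterior and Tbx18 the anterior part of each somite. Twist1 and Foxc2 act in mesenchyme and paraxial mesoderm, and Tbx6 specifies presomitic mesoderm. Most of these patterns are known from stages well before E18.5, when the column is already cartilage and bone.

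Library totals ran from 59722279 to 67575728 counts in KO and from 35181518 to 48021848 counts in WT, so depth and genotype cannot be told apart by design. A count of 3 corresponded to 0.0392 to 0.0831 CPM (counts scaled to the library total, with TMM factors). Markers of the tissues of a spine were present in every library: 5 cartilage markers summed to 10212 to 26444 CPM in KO and 4927 to 11108 CPM in WT, 5 skeletal muscle markers to 13203 to 20345 CPM in KO and 7248 to 16441 CPM in WT, and 5 neuron markers to 601 to 925 CPM in KO and 644 to 1129 CPM in WT. The 5 fat markers summed to 226 to 459 CPM in the KO libraries, against 5112 and 813 CPM in the male WT pair and 715 and 4869 CPM in the female WT pair. The share of counts from mitochondrial genes was 4.56% and 15.6% in male KO, against 18.3% and 20.9% in male WT, and 13.6% and 4.66% in female KO, against 5.55% and 7.27% in female WT. The part of these differences in the results below was not tested. In whole tissue, fewer cells of a type and less RNA per cell cannot be told apart.

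The promoters of Pax1, of its paralogue Pax9 and of their target Nkx3-2 are shown because the deletion is named for Pax1 and these 3 genes form the core of the sclerotome programme. The sequences are from RefSeq (GRCm38.p6, the mm10 build), run from 250 bases before to 50 bases after the annotated start, and are written 5′ to 3′ on the strand of the gene. For Pax1 and Pax9 the start in this table lies inside the span of the gene given below, not at its first base. The table has a promoter for 8 of the 10 members, all but Meox1 and Foxc2. Capitals mark matches to any of 8 motifs searched on both strands.
Pax1 (chr2:147364744-147365043, plus strand): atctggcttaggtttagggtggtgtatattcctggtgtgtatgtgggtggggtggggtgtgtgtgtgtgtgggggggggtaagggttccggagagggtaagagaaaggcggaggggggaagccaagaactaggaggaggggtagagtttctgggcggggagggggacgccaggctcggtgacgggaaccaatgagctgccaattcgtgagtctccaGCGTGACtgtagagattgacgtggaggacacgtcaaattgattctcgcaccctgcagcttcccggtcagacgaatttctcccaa
Pax9 (chr12:56695221-56695520, plus strand): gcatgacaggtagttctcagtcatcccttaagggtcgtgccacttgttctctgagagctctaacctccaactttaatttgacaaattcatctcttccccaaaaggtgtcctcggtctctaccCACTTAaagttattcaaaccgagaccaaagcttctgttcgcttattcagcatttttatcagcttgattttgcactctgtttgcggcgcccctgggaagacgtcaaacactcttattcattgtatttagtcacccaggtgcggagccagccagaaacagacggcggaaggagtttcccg
Nkx3-2 (chr5:41764171-41764470, minus strand): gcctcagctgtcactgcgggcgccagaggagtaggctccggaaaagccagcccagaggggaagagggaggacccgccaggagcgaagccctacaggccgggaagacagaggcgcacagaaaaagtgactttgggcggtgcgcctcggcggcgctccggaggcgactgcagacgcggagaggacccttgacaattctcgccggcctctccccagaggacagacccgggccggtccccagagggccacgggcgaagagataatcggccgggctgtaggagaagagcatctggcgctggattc
The motifs were a paired-domain core (GTCACGC), a homeodomain core (TAATTA), an Nkx3 site (TAAGTG), a forkhead core (TGTTTA), a T-box site (TCACAC), a Twist E-box (CATATG), a Gli site (GACCACCC) and a TATA box (TATAAA), and no match overlapped another. The Pax1 promoter held the paired-domain core, read on the opposite strand from position -34, and 2.09% of 32851 mouse promoters of the same length hold it. The Pax9 promoter held the Nkx3 site, also on the opposite strand, from position -128, against 9.20% of all promoters. The Nkx3-2 window held none of the 8. Of the other members with a promoter in the table, Uncx held the homeodomain core at -133 and at -30, against 5.29% of promoters with at least 1, and a forkhead core at -158 (13.4%). Tbx6 held the homeodomain core at -231 and a TATA box at -43, Twist1 a TATA box at -126 and Meox2 a TATA box on the opposite strand at -29, against 13.6% of promoters with a TATA box, and Tbx18 held none. A match is a description of letters and not of binding.

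Levels can be compared between genes only per length of transcript, here as RPKM over the 8 libraries. Meox2 stood highest at 24.8 ± 6.36 RPKM (SD over 8 libraries), followed by Twist1 at 17.3 ± 2.83, Meox1 at 9.38 ± 2.14, Pax1 at 8.53 ± 1.94 and Foxc2 at 5.18 ± 1.02 RPKM. Tbx18 was at 1.46 ± 0.143, Nkx3-2 at 1.04 ± 0.349, Uncx at 0.925 ± 0.252 and Pax9 at 0.921 ± 0.207 RPKM. Tbx6, the presomitic factor, was lowest at 0.220 ± 0.0690 RPKM. Meox1 was above Pax1 in 6 of 8 libraries, Nkx3-2 above Uncx in 5 and Uncx above Pax9 in 4, so the order within these pairs did not exceed the spread of the libraries. Between neighbours in this order, the ranges of the 8 libraries were apart only for Twist1 over Meox1, Foxc2 over Tbx18 and Pax9 over Tbx6. Ranges overlapped for Meox2 over Twist1 and Pax1 over Foxc2, although each library had that order, and Tbx18 was above Nkx3-2 in 7 of 8. Per length, Pax1 transcripts were thus the more abundant of the Pax1 and Pax9 pair, and Meox2 the more abundant of the Meox pair.

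**Figure D1:**
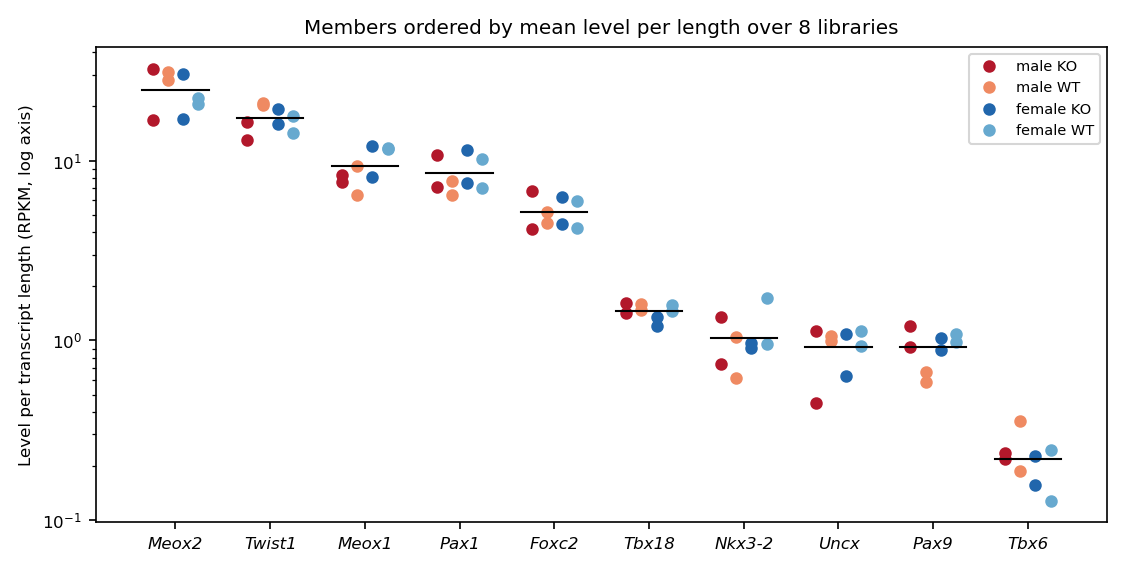
Level of each member per transcript length (RPKM, log axis), 1 point per library coloured by group, with a bar at the mean of the 8 libraries. Members run from Meox2 at 24.8 RPKM on the left to Tbx6 at 0.220 RPKM on the right.

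The first comparison is of Pax1 between the genotypes. The gene (Entrez 18503) lies on chromosome 2 at 147361930 to 147375049 of mm10. In males Pax1 was at 28.3 and 18.9 CPM in KO, against 20.4 and 17.0 CPM in WT. In females Pax1 was at 30.3 and 19.9 CPM in KO, against 27.0 and 18.6 CPM in WT. In both sexes the genotypes overlapped, and the 2 KO libraries of a sex lay farther apart than the means of the genotypes did. The log2 fold change over both sexes was 0.24 (SE 0.22, 95% interval of the fold 0.833 to 1.67, edgeR adjusted p = 0.923), and the data leave room for any fold within that interval. By sex it was 0.34 in males (SE 0.31, edgeR adjusted p = 0.611) and 0.14 in females (SE 0.31, edgeR adjusted p = 0.869), and the 2 effects differed by -0.20, female minus male (SE 0.44, edgeR adjusted p = 0.8292). When single libraries were left out, the log2 fold change of Pax1 ran from 0.019 (without male KO 1) to 0.60 (without male KO 2) in males, from -0.20 (without female KO 1) to 0.43 (without female WT 1) in females, and from 0.091 (without male KO 1) to 0.39 (without female WT 1) over both sexes. AI646519, annotated on the opposite strand over Pax1 exons, had 69 and 115 counts in male KO, against 122 and 122 counts in male WT. In females AI646519 had 232 and 115 counts in KO, against 79 and 48 counts in WT. These are raw counts, not scaled for depth, and every KO library had a higher total than every WT library. They do not compare the level of AI646519 between the genotypes. The sources used here do not give the strand setting of the counting, so reads of the 2 genes cannot be told apart where they overlap. Pax1 itself had 670 to 2164 counts.

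Pax9 (Entrez 18511, chromosome 12, 56691693 to 56712824) was the member with the smallest p in males. In males Pax9 was at 5.03 and 3.84 CPM in KO, against 2.79 and 2.44 CPM in WT, or 4.44 ± 0.839 CPM in KO and 2.62 ± 0.241 CPM in WT (mean ± SD, n = 2 each). The genotypes did not overlap in males, with KO higher, and the 2 male WT libraries were the lowest of all 8. The difference did not pass the threshold (log2 fold change 0.76, SE 0.28, unadjusted p = 0.0248, edgeR adjusted p = 0.292). Among all genes tested in males, 14.8% had an unadjusted p under 0.05, 7.53% with KO higher, and 19.7% had KO libraries above both WT libraries without overlap. Among the members, Pax9 was the 1 of 10 with each. In females Pax9 was at 3.69 and 4.28 CPM in KO, against 4.50 and 4.10 CPM in WT, which overlapped (log2 fold change -0.11, SE 0.28, adjusted p = 0.886). The genotype effect in females less that in males came to -0.87 (SE 0.40, unadjusted p = 0.0562, edgeR adjusted p = 0.306). The male WT libraries, lowest in Pax9, also had the highest mitochondrial shares, and with mitochondrial genes left out of the scaling the log2 fold change in males was 0.82 (edgeR adjusted p = 0.265). Exons of Slc25a21, a mitochondrial carrier gene, overlap those of Pax9 on the opposite strand. Slc25a21 as a whole gene had 34 to 108 counts per library, against 106 to 385 for Pax9. Reads in the shared exons were not counted apart.

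Nkx3-2 (Entrez 12020, chromosome 5, 41761483 to 41764220), the shared target of Pax1 and Pax9, had few counts (43 to 177 per library) and a wide spread. In males Nkx3-2 was at 2.31 and 1.26 CPM in KO, against 1.06 and 1.80 CPM in WT. In females Nkx3-2 was at 1.66 and 1.57 CPM in KO, against 2.95 and 1.63 CPM in WT. The male KO libraries differed 1.83-fold from each other, and the genotypes overlapped in both sexes. Males gave a log2 fold change of 0.33 (SE 0.46, edgeR adjusted p = 0.746) and females of -0.51 (SE 0.46, edgeR adjusted p = 0.672). The 2 effects differed by -0.84, female minus male (SE 0.65, edgeR adjusted p = 0.502). With 1 library left out at a time, the female value ran from -0.88 (without female WT 2) to -0.029 (without female WT 1) and the male value from -0.18 (without male KO 1) to 0.76 (without male WT 2).

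**Figure D2:**
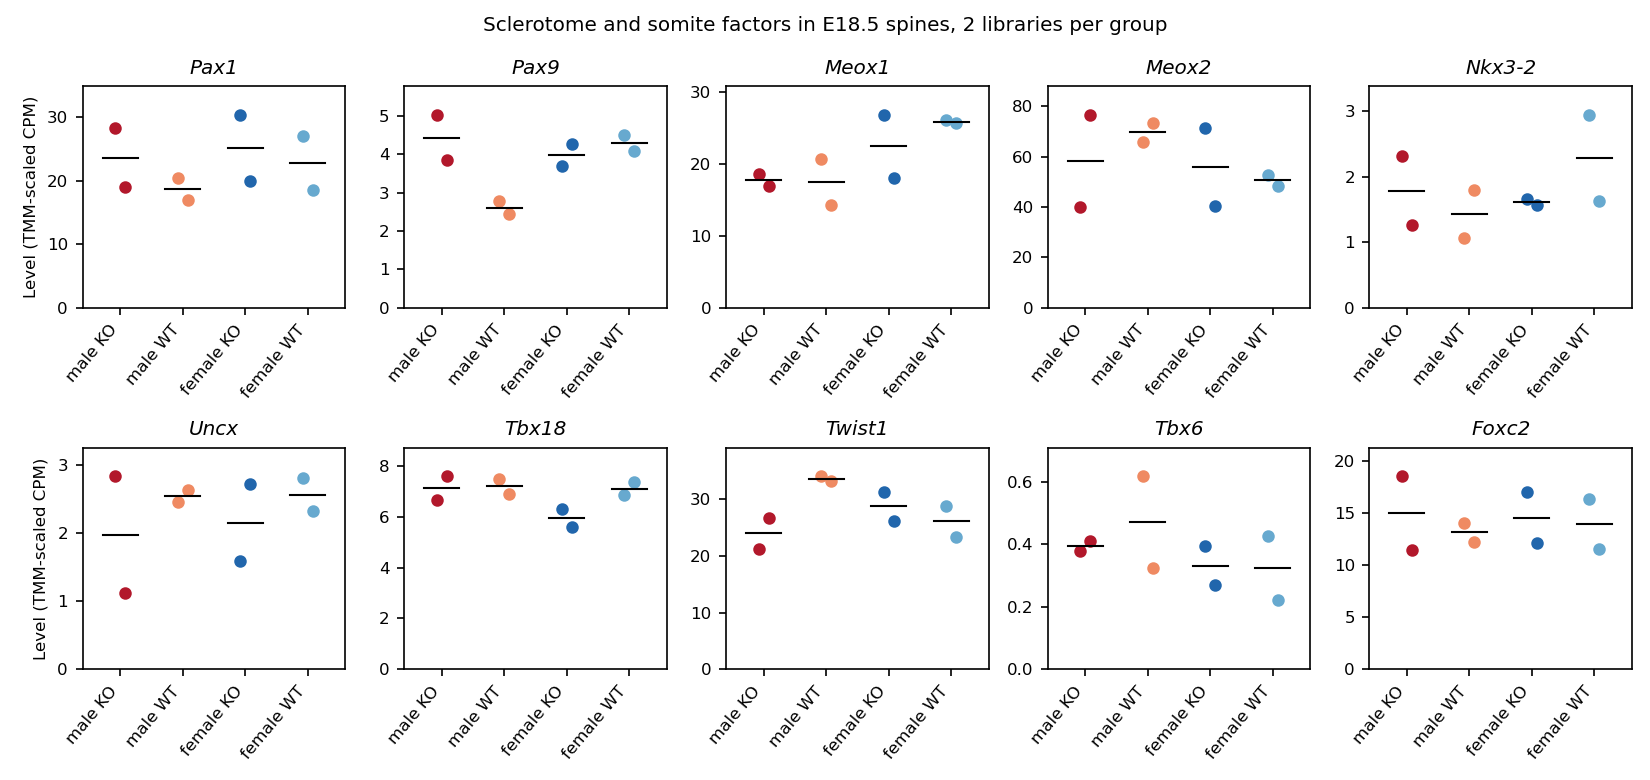
Level of each member (CPM, axis from 0) in the 4 groups, 1 point per library and a bar at the mean of 2. Pax9 in males (KO higher), Twist1 in males and Tbx18 in females (both KO lower) show genotypes without overlap, which 19.7% to 26.2% of all genes do by sex and direction, and the KO pairs of Meox2 and Uncx are far apart.

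Meox1 (Entrez 17285) lies on chromosome 11 at 101877510 to 101894354 and Meox2 (Entrez 17286) on chromosome 12 at 37108540 to 37179534. For both Meox genes the genotypes overlapped, and the KO libraries of Meox2 were scattered. In males Meox2 was at 39.9 and 76.6 CPM in KO, against 66.0 and 73.3 CPM in WT. In females Meox2 was at 71.4 and 40.4 CPM in KO, against 52.7 and 48.5 CPM in WT. The 4 KO libraries thus contained both the lowest and the highest Meox2 level, with a 1.92-fold span against 1.51-fold among the 4 WT libraries. That contrast was not tested, and Meox1 had the wider span in WT, 1.83-fold against 1.59-fold in KO. In males Meox1 was at 18.6 and 16.9 CPM in KO, against 20.7 and 14.3 CPM in WT. In females Meox1 was at 26.8 and 18.1 CPM in KO, against 26.1 and 25.8 CPM in WT. The log2 fold change over both sexes was -0.06 for Meox2 (SE 0.26, adjusted p = 0.995) and -0.09 for Meox1 (SE 0.20, adjusted p = 0.984).

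The factors of somite polarity differed in how evenly they were expressed. Tbx18 (Entrez 76365, chromosome 9, 87702800 to 87731260), of the anterior part, was the steadiest member. In males Tbx18 was at 6.66 and 7.60 CPM in KO, against 7.49 and 6.92 CPM in WT. In females Tbx18 was at 6.30 and 5.61 CPM in KO, against 6.86 and 7.37 CPM in WT. The female genotypes did not overlap, with KO lower as for 26.2% of all genes tested in females (25.9% had KO higher), and the log2 fold change of -0.26 (SE 0.23, adjusted p = 0.672) did not pass. Its SD within groups, 0.10 on the log2 scale, was larger than that of 3.55% of tested genes. D030062O11Rik is annotated over Tbx18 exons on the opposite strand, and its reads, too, cannot be told apart without the strand setting. Uncx (Entrez 22255, chromosome 5, 139543865 to 139548179), of the posterior part, was the least steady. In males Uncx was at 2.84 and 1.11 CPM in KO, against 2.47 and 2.63 CPM in WT. In females Uncx was at 1.59 and 2.72 CPM in KO, against 2.81 and 2.33 CPM in WT. Within groups its SD was 0.55, larger than that of 81.8% of tested genes, and its 4 KO libraries spanned 2.54-fold, against 1.21-fold for the 4 WT libraries. That contrast of spans was not tested. Spans were wider in KO for Pax1, Meox2, Uncx, Tbx18, Twist1 and Foxc2, and wider in WT for Pax9, Meox1, Nkx3-2 and Tbx6. The log2 fold change of Uncx over both sexes was -0.31 (SE 0.33, adjusted p = 0.937).

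Twist1 (Entrez 22160, chromosome 12, 33957671 to 33959831) is a basic helix-loop-helix factor of mesenchyme. In males Twist1 was at 21.3 and 26.8 CPM in KO, against 34.0 and 33.3 CPM in WT, or 24.02 ± 3.88 CPM in KO and 33.7 ± 0.525 CPM in WT (mean ± SD, n = 2 each). The male genotypes did not overlap, with KO lower as for 23.9% of all genes tested in males. The log2 fold change was -0.49 (SE 0.23, unadjusted p = 0.0645, adjusted p = 0.358). In females Twist1 was at 31.4 and 26.1 CPM in KO, against 28.9 and 23.3 CPM in WT, with overlap (log2 fold change 0.14, SE 0.23, adjusted p = 0.821). The genotype effects differed by 0.63, female minus male (SE 0.33, edgeR adjusted p = 0.350).

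Foxc2 (Entrez 14234, chromosome 8, 121116171 to 121118895) is a forkhead factor of paraxial mesoderm and vessels. In males Foxc2 was at 18.48 and 11.4 CPM in KO, against 14.0 and 12.2 CPM in WT. In females Foxc2 was at 17.0 and 12.1 CPM in KO, against 16.3 and 11.6 CPM in WT. The genotypes overlapped in both sexes (log2 fold change over both 0.12, SE 0.22, adjusted p = 0.976). Tbx6 (Entrez 21389) lies on chromosome 7 at 126781483 to 126785548. In males Tbx6 had 29 and 22 counts in KO, against 25 and 14 counts in WT. In females Tbx6 had 22 and 19 counts in KO, against 19 and 8 counts in WT. Scaled for depth, these are 0.379 and 0.409 CPM in male KO, against 0.616 and 0.323 CPM in male WT. The female values are 0.393 and 0.270 CPM in KO, against 0.427 and 0.222 CPM in WT, so the genotypes overlapped in both sexes. Its log2 fold change was -0.25 in males (SE 0.53), 0.0080 in females (SE 0.56) and -0.12 over both (SE 0.38, edgeR adjusted p = 0.991). The interval of its fold over both sexes ran from 0.509 to 1.65.

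Across the 10 members, 0 passed an adjusted p of 0.05 in edgeR in any genotype comparison, against 0.00% of all 18104 genes in males, in females and over both sexes. By unadjusted p under 0.05 the members counted 1 in males (14.8% of all genes), 0 in females (9.28%) and 0 over both sexes (6.83%). DESeq2 called 481 genes in males (2.66%), 144 in females (0.795%) and 141 over both sexes (0.779%), and limma voom called 0 in each. Neither called a member. In edgeR the smallest adjusted p of any gene was 0.179 for males, 0.532 for females and 0.454 for both sexes together. In males 5 of 10 members were positive (45.4% of all genes) with a median log2 fold change of 0.00 (all genes -0.06), and in females also 5 of 10 (52.6%) with a median of -0.05 (all genes 0.03). Over both sexes 3 of 10 were positive (48.9%), with a median of -0.09 (all genes -0.01). For 0 members did all 4 KO libraries lie above or below all 4 WT libraries, which 1.68% of all genes did with KO higher and 1.63% with KO lower. Over both sexes the 95% intervals of 9 of the 10 members lay within a 2-fold difference in either direction, Uncx being the exception, while within a sex only 3 did in males and 7 in females.

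**Figure D3:**
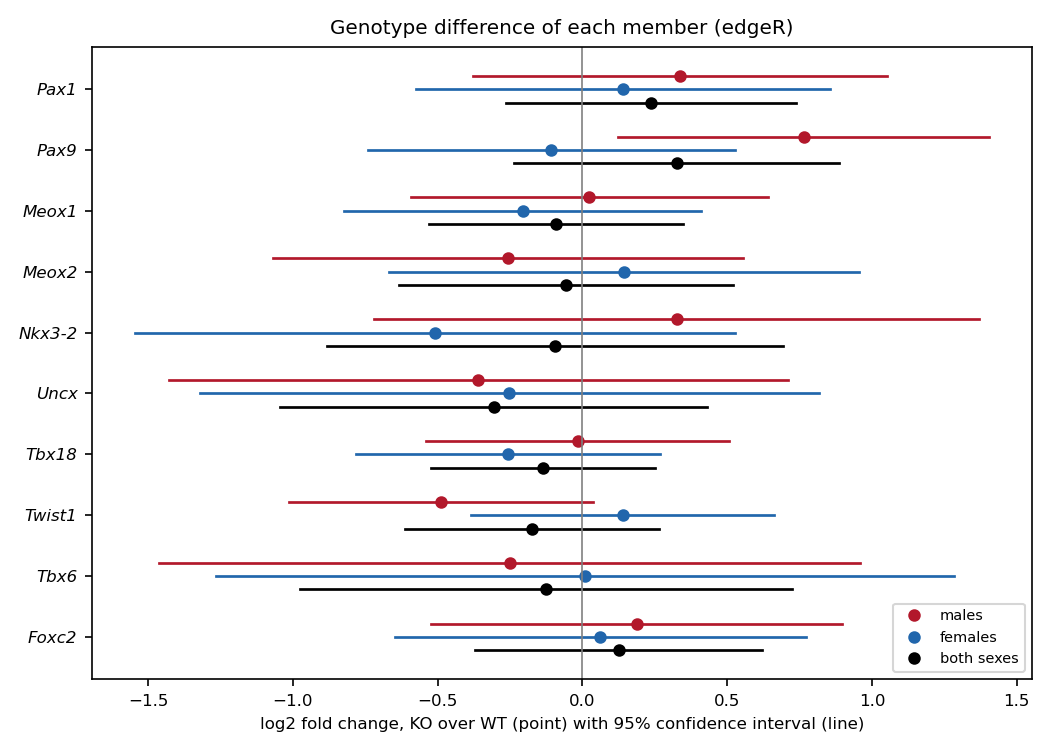
Log2 fold change of each member, KO over WT, with its 95% confidence interval in males, females and both sexes (edgeR). Every interval includes 0 except that of Pax9 in males (0.12 to 1.40), whose adjusted p was 0.292.

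Since the title ties the deleted region to sex, the sexes were also compared in WT. Female minus male, Pax9 had a log2 difference of 0.72 (SE 0.28, unadjusted p = 0.0330, adjusted p = 0.157) and Meox1 of 0.57 (SE 0.27, unadjusted p = 0.0664, adjusted p = 0.208). Both female WT libraries were above both male WT libraries for these 2 genes, as for 31.0% of all genes, and below both for Meox2 and Twist1, as for 35.1% of all genes. Female minus male in WT, Meox2 had -0.46 (SE 0.36, edgeR adjusted p = 0.405) and Twist1 -0.37 (SE 0.23, edgeR adjusted p = 0.314). Pax1 had 0.29 (SE 0.31, adjusted p = 0.561), with overlap. Between the sexes in WT, 1 of 10 members had an unadjusted p under 0.05, against 27.3% of all genes, and 0 passed the edgeR adjustment, against 0.00552% (1 gene). DESeq2 called 2099 genes there (11.6%) and limma voom 2 (0.0110%), and 0 members. In the test of whether the genotype effect differed between the sexes, 0 members and 16.7% of all genes had an unadjusted p under 0.05, and 0 members and 0.00% of all genes passed in edgeR. DESeq2 called 362 genes (2.00%) and limma voom 0, with 0 members. The edgeR adjusted p-values of the members ran from 0.306 for Pax9 to 0.944 for Uncx.

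The members were then compared with Pax1 from library to library, whatever the genotype. The log2 level of Foxc2 had a Pearson r of 0.93 with that of Pax1 over the 8 libraries (exact permutation p = 0.00308, adjusted p = 0.0277 over the 9 pairs) and a Spearman rho of 0.81 (exact permutation p = 0.0218, adjusted p = 0.196). The 3 libraries highest in Pax1 (female KO 1, male KO 1 and female WT 1) were also the 3 highest in Foxc2. In each of the 4 groups the library with more Pax1 had more Foxc2. That library was replicate 1 in all 4 groups, and the part of the replicate number in this relation was not tested. The same direction in 4 of 4 groups was found for Foxc2 and Meox1 among the members and for 3.71% of the 18103 tested genes other than Pax1. Without the 2 libraries farthest from the median of Pax1 (male KO 1 and female KO 1) r was 0.88 with an exact permutation p of 0.0333 (adjusted p = 0.30, n = 6), which no longer passed over 9 pairs with fewer libraries. No library lay between 20.4 and 27.0 CPM of Pax1, a gap of 48.3% of its log2 range, so the r over 8 sets 3 libraries against 5. The relation within the 5 lower or the 3 higher libraries is of too few libraries to test. With the group means taken out, r was 0.98. That value rests on 1 difference between replicates in each of the 4 groups, not on 8 separate libraries, and was not tested.

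The other 8 members gave weaker relations that did not pass. Meox1 had r = 0.58 (rho = 0.67) with Pax1, Pax9 r = 0.55 (rho = 0.40) and Nkx3-2 r = 0.53 (rho = 0.29), with adjusted exact permutation p-values of 0.408 for each r. Tbx6 had r = 0.32, Uncx 0.05, Twist1 -0.15, Meox2 -0.22 and Tbx18 -0.32, with adjusted exact permutation p-values from 0.682 to 0.922. By r with Pax1, its paralogue Pax9 and their target Nkx3-2 ranked 795 and 940 among 14780 genes, and Foxc2 ranked 2.

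**Figure D4:**
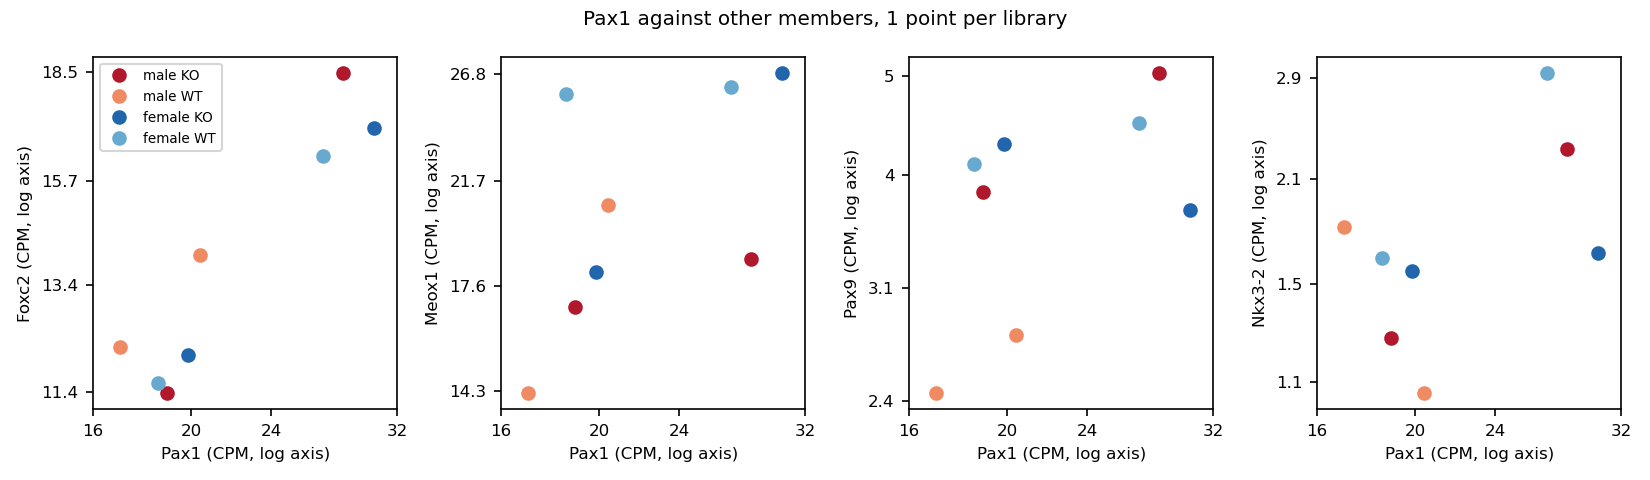
Pax1 level (CPM, log axis) against Foxc2, Meox1, Pax9 and Nkx3-2 (CPM, log axes), 1 point per library coloured by group. The 3 libraries above 27.0 CPM of Pax1 are the highest in Foxc2 (r = 0.93), and the other 3 genes are more scattered (r from 0.53 to 0.58).

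The 5 genes most like Pax1 among those 14780, by r over the 8 libraries and with a mean of at least 1 CPM, were Igfbp2 (r = 0.95), Foxc2 (0.93), Foxd3 (0.91), Gli1 (0.91) and Otud5 (0.88). Gli1 is a transcriptional target and effector of hedgehog signalling, Igfbp2 a secreted binding protein of insulin-like growth factors, Foxd3 a forkhead factor of neural crest and Otud5 a deubiquitinase. In males Gli1 was at 27.3 and 17.9 CPM in KO, against 16.2 and 16.7 CPM in WT. In females Gli1 was at 24.7 and 20.8 CPM in KO, against 24.3 and 17.6 CPM in WT. Its 3 highest libraries were those highest in Pax1. Of the 14780 genes, 23 had r above 0.8, which is 0.156%. These 5 were picked as the highest of many and are given as a description without a test.

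Pax1 was also set against 12 measures of library makeup, namely the 10 marker lists, the mitochondrial share and the total count. The highest r was with smooth muscle and pericyte markers (r = 0.60, rho = 0.38) and with cartilage markers (r = 0.57, rho = 0.52), and the lowest with the mitochondrial share (r = -0.43, rho = -0.48). Adjusted exact permutation p-values were from 0.592 to 0.944 for r and from 0.720 to 0.935 for rho, and without the 2 libraries farthest from the median r was 0.64, 0.47 and -0.54 for these 3. The 5 smooth muscle and pericyte markers summed to 308 to 418 CPM in KO and 175 to 431 CPM in WT. Acta2 was the largest part of this sum in every library, so the r is mostly that of Acta2. Acta2 was highest in female WT 1 (302 CPM) and Pdgfrb in male KO 1 (105 CPM), both among the libraries highest in Pax1. Myh11 was highest in male WT 1 (31.5 CPM), Rgs5 in male KO 2 (40.9 CPM) and Kcnj8 in female WT 2 (18.8 CPM), which were not. The total count had r = 0.32 and the highest rho (0.62), with r = -0.30 without those 2 libraries. Notochord markers had r = 0.31, skeletal muscle 0.35, neurons 0.03, epidermis -0.23, lung -0.31, thymus epithelium -0.37, fat -0.41 and thymocytes -0.41. Pax1 and Pax9 are also made by thymus epithelium, whose 5 markers summed to 1.87 to 3.38 CPM in KO and 2.20 to 4.98 CPM in WT. Its factor Foxn1 had 0 to 2 counts and its proteasome subunit Psmb11 0 to 6 counts per library. The notochord factor Noto had 0 counts in every library.

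Around the members, 5 lists of pathway genes were read in the same fits. In edgeR 0 of their genes passed in the genotype comparisons, and over both sexes an unadjusted p under 0.05 was found for 0 segmentation genes, 1 regulator of sclerotome and cartilage, 0 dermomyotome regulators, 2 hedgehog and noggin genes and 5 cartilage matrix genes, against 6.83% of all genes. Of 16 segmentation genes of presomitic mesoderm 15 were tested (Mesp1 was not, with 26 counts in all). Over both sexes 0 of them passed in edgeR and 7 were positive (48.9% of all genes were), with a median log2 fold change of -0.02. The 3 with the smallest p were Msgn1, a presomitic factor (1.10, SE 0.50), Nrarp, a Notch feedback gene (-0.38, SE 0.18), and Rbpj, the Notch effector (0.17, SE 0.15), with adjusted p from 0.738 to 0.905. Of 16 regulators of sclerotome and early cartilage 0 passed, 11 were positive (48.9% of all genes were) and the median was 0.18. Hand2, a limb and heart factor, had -1.14 (SE 0.44), the cartilage factor Sox5 0.39 (SE 0.17) and the osteoblast factor Runx2 0.39 (SE 0.17), with adjusted p from 0.703 to 0.738.

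Of 16 dermomyotome and myotome regulators 0 passed over both sexes, 10 were positive (48.9% of all genes were) and the median was 0.08. Myf6, a myogenic factor, had a log2 fold change of 0.48 (SE 0.22), Six4 0.32 (SE 0.18) and Tbx15 0.27 (SE 0.18), with adjusted p from 0.738 to 0.839. In the hedgehog and noggin list 0 of 14 passed and 11 were positive, against 48.9% of all genes. The median of this list was 0.28, against -0.01 over all genes. The hedgehog antagonist Hhip had 0.62 (SE 0.25), the receptor Ptch1 0.83 (SE 0.34) and the BMP antagonist Grem1 0.51 (SE 0.23), with adjusted p from 0.718 to 0.743. In males Ptch1 was at 60.2 and 26.9 CPM in KO, against 13.0 and 19.5 CPM in WT. In females Ptch1 was at 30.4 and 40.8 CPM in KO, against 34.8 and 26.0 CPM in WT. The male KO libraries were above both male WT libraries, as for 19.7% of all genes tested in males, while the female groups overlapped. The median of this list was 0.57 in males and 0.06 in females, against -0.06 and 0.03 over all genes.

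The cartilage matrix list, which also holds the receptor gene Fgfr3, stood highest of the 5. All 9 of its genes were positive over both sexes (48.9% of all genes were), with a median of 0.86, and 0 passed in edgeR. In males 9 were positive (45.4% of all genes). In females 7 were positive (52.6% of all genes) and 2 negative, Matn4 (-0.09) and Matn1 (-0.02). Aggrecan (Acan) had 1.21 (SE 0.40), Col9a1 0.86 (SE 0.30) and Col11a2 1.23 (SE 0.46), with adjusted p from 0.650 to 0.695. In males Acan was at 1261 and 516 CPM in KO, against 386 and 247 CPM in WT. In females Acan was at 527 and 1094 CPM in KO, against 565 and 281 CPM in WT. The 5 cartilage markers (Acan, Col2a1, Col9a1, Comp and Matn1) are all in this list, so the list and the marker sums share genes, and the part of tissue makeup in these values was not tested. In DESeq2, 1 gene each of 4 lists passed in males, all as higher in KO: Ptch1 (adjusted p = 0.0278), Comp of cartilage matrix (0.0350), Gli3 of the sclerotome list (0.0334) and Pax7 of the dermomyotome list (0.0209), the last 3 named after their values were seen, against 2.66% of all genes. None of the 5 lists had a gene called by DESeq2 in females or over both sexes.

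**Figure D5:**
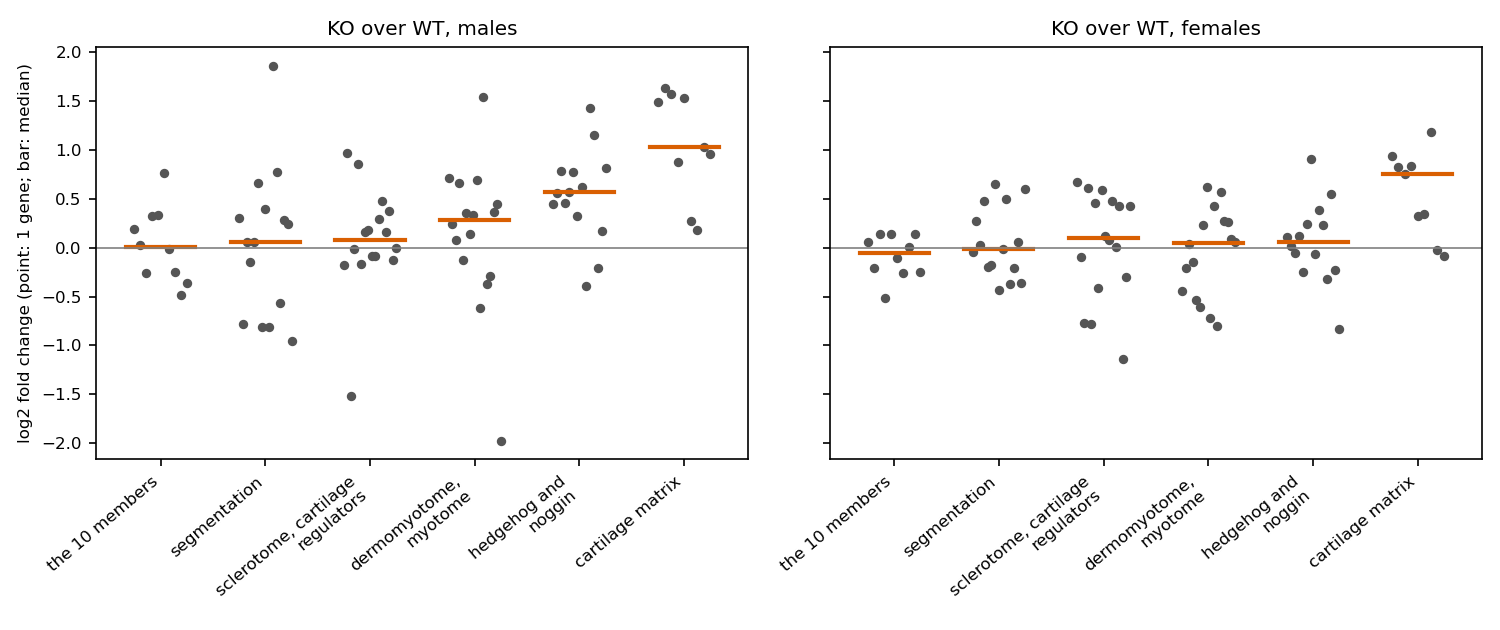
Log2 fold change, KO over WT, of the 10 members and of the genes of 5 lists in males (left) and females (right), 1 point per gene and a bar at the median. The median of the members is 0.00 in males and -0.05 in females, and that of the cartilage matrix list is 1.03 and 0.75.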

How the data were processed

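Each of the 8 libraries was made from a whole spine at E18.5 with a stranded kit that selects polyadenylated RNA, per the labels' protocols. The authors deposited whole-number read counts per Entrez gene ID, not normalized. The submitters' processing notes name HISAT2, featureCounts, FastQC 1.0.0, MultiQC 1.0.0 and mm10, while annotation and strand setting are not given in sources used here. Of 27179 IDs, 25275 took a symbol from RefSeq (GRCm38.p6) and 18 from GENCODE M21, and 1886 stayed unnamed.

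Low genes were removed by filterByExpr on the groups (minimum count 10), and TMM gave the scaling. The quasi-likelihood test of edgeR 4.0.16 (R 4.3.3, two-sided, Benjamini-Hochberg over 18104 genes, threshold 0.05) used 4 group means (4 residual degrees of freedom), or sex and genotype for both sexes together (5). The SE is the log2 fold change over the square root of F, and intervals are 95%. RPKM used the length of the RefSeq transcript in GENCODE. Log2 CPM carried a prior count of 2. Permutation tests over the 40320 pairings were two-sided. Alternatives were DESeq2 1.42.0, limma 3.58.1, other scalings and filters, left-out libraries and a replicate block, and the fits were tested on simulated data. The 2 libraries of each group differed by more than sampling noise (chi-square over its degrees of freedom 112 to 557), and all 8 were kept. Counting error limits precision in addition to this spread between libraries. The members, lists and tests were chosen with earlier results of these data known. Named were every member, the 3 genes of each list with the smallest p over both sexes, and the 5 genes most like Pax1.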

Additional observations from a re-analysis of the deposited data

Results flagged for a closer look

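Meox1 in female KO 1, at 26.8 CPM, stood apart from the other 3 KO libraries, at 16.9, 18.1 and 18.6 CPM: its gap to the nearest of them exceeded Dixon's 95% critical value for 4 libraries as a share of the range. It was the only such case among 20 sets of 4 libraries, the 10 members in each genotype, and chance gives about 1 in 20. The KO libraries in this set are of both sexes, and the female WT libraries were at 26.1 and 25.8 CPM.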

How the results depend on the processing

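In edgeR 0 genes passed in the 3 genotype comparisons and in the test of the difference between the sexes, and 1 gene in the comparison of the sexes in WT. DESeq2 called 481 genes in males, 144 in females, 141 over both sexes, 362 for the difference between the sexes and 2099 between the sexes in WT. Without the filter on low counts edgeR called 39 in males, 1 for the difference and 629 between the sexes in WT. Without the pair male WT 1 and female WT 2, the libraries with the highest fat marker sums, the calls were 24 in females, 1 for the difference and 4 between the sexes in WT. Leaving out 1 library at a time gave 0 to 33 calls in females (33 without female WT 2), 0 to 9 for the difference (9 without female WT 2) and 1 to 1735 between the sexes in WT (1735 without male KO 1, 1671 without male KO 2, 30 without female WT 2, 5 without either female KO library, 2 without male WT 2), and 0 in males and over both sexes. The cause of these shifts was not tested.

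Replicate numbers were not used to pair the samples in the main test. The correlation of replicate 1 minus replicate 2 was 0.15 between male KO and male WT and -0.14 between female KO and female WT. It was -0.53 between male KO and female KO and -0.36 between male WT and female WT. Between male WT and female KO it was 0.18, and between male KO and female WT 0.03. Replicate differences were thus not unrelated between groups, and the cause was not tested. Pax1, Foxc2 and Meox1 were higher in replicate 1 in every group, and the other members were not. With the replicate number as a block edgeR called 0, 0, 0 and 0 genes in the first 4 comparisons and 2 between the sexes in WT. With this block Pax1 over both sexes had a log2 fold change of 0.22 (SE 0.16, edgeR adjusted p = 0.947). Without the block it was 0.24 (SE 0.22). limma voom also called 2 between the sexes in WT.

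Over 750 values (10 members, 5 comparisons, 15 alternatives) 0 members crossed the threshold, and the smallest adjusted p was 0.0956. The sign reversed in 76 of them, 22 outside the leaving out of single libraries, all for log2 differences of 0.51 or less. The cause was not tested.

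With DESeq2 size factors in edgeR the reversed log2 values were Tbx18 0.019 in males, Tbx6 -0.0093 in females, Tbx18 0.019 for female minus male in WT. Without the filter the reversed log2 values were Tbx18 0.0038 in males, Tbx18 0.00080 for female minus male in WT. In DESeq2 the reversed log2 values were Tbx18 0.019 in males, Tbx6 -0.0053 in females, Tbx18 0.019 for female minus male in WT. With mitochondrial genes left out the reversed log2 values were Tbx18 0.037 in males, Tbx6 -0.0020 in females, Tbx18 0.011 for female minus male in WT. Without the pair male WT 1 and female WT 2 the reversed log2 values were Tbx18 0.098 and Tbx6 0.34 in males, Pax1 -0.11, Twist1 -0.016, Tbx6 -0.38 and Foxc2 -0.17 in females, Meox1 0.063 over both sexes, Uncx -0.045 and Tbx6 -0.72 for the effect in females less that in males, Tbx18 0.031 and Tbx6 0.44 for female minus male in WT.

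Leaving out 1 library at a time, the log2 values in males ran from -0.21 to 0.32 for Meox1, from -0.80 to 0.14 for Meox2, from -0.18 to 0.76 for Nkx3-2, from -1.19 to 0.16 for Uncx, from -0.11 to 0.077 for Tbx18, from -0.64 to 0.29 for Tbx6, from -0.20 to 0.50 for Foxc2. Leaving out 1 library at a time, the log2 values in females ran from -0.20 to 0.43 for Pax1, from -0.52 to 0.050 for Meox1, from -0.32 to 0.50 for Meox2, from -0.69 to 0.081 for Uncx, from -0.014 to 0.29 for Twist1, from -0.38 to 0.56 for Tbx6, from -0.21 to 0.32 for Foxc2. Leaving out 1 library at a time, the log2 values over both sexes ran from -0.21 to 0.051 for Meox1, from -0.28 to 0.14 for Meox2, from -0.38 to 0.20 for Nkx3-2, from -0.28 to 0.12 for Tbx6, from -0.043 to 0.26 for Foxc2. Leaving out 1 library at a time, the log2 values for the effect in females less that in males ran from -0.54 to 0.12 for Pax1, from -0.54 to 0.0081 for Meox1, from -0.067 to 0.94 for Meox2, from -0.41 to 0.94 for Uncx, from -0.28 to 0.78 for Tbx6, from -0.44 to 0.26 for Foxc2. Leaving out 1 library at a time, the log2 values for female minus male in WT ran from -0.098 to 0.17 for Uncx, from -0.070 to 0.064 for Tbx18, from -1.04 to 0.026 for Tbx6, from -0.15 to 0.34 for Foxc2.

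Without the 2 libraries farthest from the median of Pax1, 0 of 9 correlations with Pax1 passed, against 1 over all 8, with fewer libraries in the test, and r of Twist1 was 0.013, against -0.15. Tbx6 had the fewest counts of the members, at 8 to 29 per library.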
